A study of Mus musculus with 6 samples.

Results

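The miRNAs described here are miR-192-5p, miR-194-5p, miR-122-5p and miR-203-3p, 4 of the 1927 rows of mature microRNAs (miRNAs) in a small RNA count table of extracellular vesicles from mouse bone. They were chosen by name, as miRNAs typical of tissues other than bone, and all 4 names were found. Tibias and femurs of untreated Swiss-CD1 males, 8 weeks of age, were freed of marrow by a brief spin and crushed to release the vesicles. One group was the large vesicles (lEVs), pelleted at 10000 g. The other was the small vesicles (sEVs), collected at 100000 g on a 30% sucrose cushion. Each group had 3 libraries. All libraries shared the strain, sex, age and bone source, and no group of another tissue or of plasma was analysed here. Size, spin and cushion differ together between the fractions and cannot be told apart. The labels do not say whether the replicates were separate animals, preparations or pools of animals, so every p-value measures the spread between these libraries, which may be technical.

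A miRNA is a short RNA that directs silencing of messenger RNAs, mainly through its seed, bases 2 to 8 from the 5′ end. miR-122-5p is the dominant miRNA of hepatocytes, and its level in plasma is used as a sign of liver injury. miR-192-5p and miR-194-5p are made from neighbouring hairpins and are abundant in liver, gut and kidney epithelium, where hepatocyte nuclear factors drive them. miR-203-3p is a miRNA of stratified epithelium that restrains the stem-cell state of keratinocytes through the messenger RNA of p63. Vesicles carry miRNAs of the cells that released them, so such miRNAs can serve as a gauge of vesicles from other tissues or the circulation. The same molecules are also made at lower levels elsewhere, and a count does not name the cell of origin.

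The mature sequences of the 3 miRNAs that were counted, and of miR-215-5p, the relative of miR-192-5p, show which miRNAs share a seed. They are given 5′ to 3′ from RefSeq (GRCm38.p6), with the seed in capitals.
miR-192-5p: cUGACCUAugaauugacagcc
miR-215-5p: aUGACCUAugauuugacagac
miR-194-5p: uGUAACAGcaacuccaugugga
miR-203-3p: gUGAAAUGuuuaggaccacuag
miR-192-5p and miR-215-5p have the same seed and the same base at 18 of 21 positions. miR-194-5p and miR-203-3p share their seed neither with each other nor with another mature miRNA of the RefSeq entries used. The hairpin of miR-192 lies at chromosome 19, 6264844 to 6264932 (GRCm38, plus strand), 115 bases downstream of Mir194-2 at 6264643 to 6264728. Neither overlaps another gene in the GENCODE M21 annotation. An identical miR-194-5p is also cut from Mir194-1 on chromosome 1, 185313319 to 185313385, in an intron of the noncoding gene 2010103J01Rik and antisense to Iars2, with Mir215 following after 195 bases. Counts of miR-194-5p therefore cannot be assigned to one hairpin. Mir203 lies at chromosome 12, 112130880 to 112130955, plus strand, and overlaps no other gene of that annotation. RefSeq places the miR-203b arms on the opposite strand of the same hairpin.

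The 6 libraries held 47441 to 114331 counts, so 1 count was worth between 8.75 and 21.1 CPM of library total. CPM are counts scaled to a library of 1000000 counts, here either by the library total or with the TMM factors of edgeR. No value in the table was 1 (0 values, beside 77 values of 2), and a listed 0 may be 0 or 1 count. No limit was therefore computed from a 0. lEVs replicate 1 had the fewest counts and stood apart from the other lEVs libraries. Its counts differed from theirs by a chi-square statistic of 15.7 and 20.2 per degree of freedom, against 2.06 between lEVs replicates 2 and 3. Results that rest on it are given with and without it. Intervals for single libraries are exact (Clopper-Pearson) 95% binomial intervals and cover counting error only. They take each count as a separate molecule, which no source used here states.

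The most specific liver marker was listed at 0 in every library. This was miR-122-5p, in libraries of 515711 counts in all, and its other arm, miR-122-3p, was listed at 0 as well. The 3 other miRNAs were above 0 in every library, with 176 counts of miR-203-3p, 133 of miR-192-5p and 87 of miR-194-5p. Together they made up 0.0295%, 0.0789% and 0.0773% of the counts of lEVs replicates 1, 2 and 3, and 0.0927%, 0.0775% and 0.0831% of those of sEVs. The share averaged 0.0619% (SD 0.0281, n = 3) over lEVs and 0.0844% (SD 0.00769, n = 3) over sEVs. By this share of library total the fractions overlapped, since sEVs replicate 2 lay below lEVs replicate 2. On that scale the low lEVs mean rested on lEVs replicate 1: without it the lEVs mean was 0.0781%. The overlap depended on the scaling. In CPM with TMM factors the 3 miRNAs summed higher in every sEVs library than in any lEVs library, so leaving out lEVs replicate 1 did not make the fractions overlap there. No test was made of these sums.

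**Figure D1:**
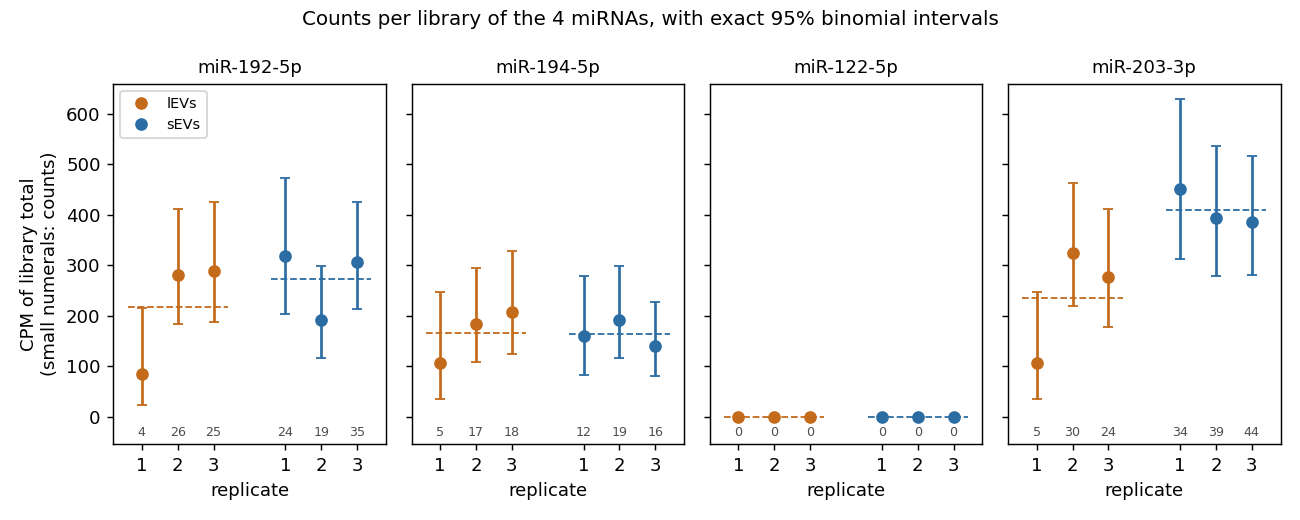
CPM of library total (y axis) of the 4 miRNAs in each replicate (x axis) of lEVs and sEVs, with exact 95% binomial intervals, dashed group means and the counts as small numerals. No interval is drawn for a listed 0. For miR-203-3p the 3 sEVs libraries, at 385 to 450, lie above the 3 lEVs libraries, at 105 to 324, and miR-122-5p is at 0 throughout.

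Small vesicles held more miR-203-3p than large vesicles in every library, but the difference missed the threshold. miR-203-3p, the keratinocyte miRNA, was counted 5, 30 and 24 times in lEVs replicates 1, 2 and 3, and 34, 39 and 44 times in the sEVs replicates. These are 105, 324 and 277 CPM of library total in lEVs and 450, 393 and 385 in sEVs. The 3 sEVs values were above the 3 lEVs values, also in CPM with TMM factors. Of all 145 miRNAs tested, 22.1% had all sEVs libraries above all lEVs libraries on that scale, and 44.1% had fractions that did not overlap in one direction or the other, so such an order was common. On the TMM scale its level was 425.5 ± 38.8 CPM in small and 215.6 ± 80.9 CPM in large vesicles (SD, n = 3 each). The fold change of sEVs over lEVs was 1.81 (95% interval 1.19 to 2.76; log2 0.86, SE 0.26), with an adjusted p of 0.0542 (quasi-likelihood test of edgeR, Benjamini-Hochberg over the 145 miRNAs). The unadjusted p was 0.0116.

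The largest gap among the lEVs libraries was that of replicate 1. Its 105 CPM of miR-203-3p (interval 34.2 to 246) compare with 324 (219 to 463) and 277 (178 to 412) in the other lEVs libraries. The lowest sEVs library had 385 (280 to 517), so the intervals of lEVs replicates 2 and 3 overlapped those of sEVs. Without lEVs replicate 1 the log2 fold change shrank from 0.86 to 0.68, while miR-203-3p passed the threshold (edgeR adjusted p = 0.0402). In that fit 34.4% of 151 miRNAs tested were called, against 17.2% with all 6 libraries. Calls higher in sEVs made up 19.2% without that library and 8.28% with it. DESeq2 gave miR-203-3p an adjusted p of 0.252 with all 6 libraries, over a larger set of 238 miRNAs.

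miR-192-5p, the liver, gut and kidney miRNA, had overlapping values in the fractions, and its difference lay within the spread of libraries. In the order of replicates 1 to 3, lEVs gave 4, 26 and 25 counts of it, and sEVs gave 24, 19 and 35. In CPM of library total, these are 84.3, 281 and 289 for lEVs and 318, 191 and 306 for sEVs. By these values lEVs replicate 1 was the lowest and sEVs replicate 2 the next, and the other 4 libraries lay close together. With TMM factors those 4 lay further apart, at 238.7 and 258.2 CPM in lEVs replicates 2 and 3 and 331.2 and 314.2 CPM in sEVs replicates 1 and 3. On the TMM scale, small vesicles had 282.1 ± 70.9 CPM and large ones 198.6 ± 86.9 CPM (SD, n = 3 each). The fold change was 1.29, with an interval from 0.749 to 2.24 (log2 0.37, SE 0.34; edgeR adjusted p = 0.427). Without lEVs replicate 1 the log2 fold change was 0.17 (edgeR adjusted p = 0.712).

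miR-194-5p, which is made beside miR-192-5p, had nearly the same level in both fractions. lEVs gave 5, 17 and 18 counts of it, and sEVs gave 12, 19 and 16. In CPM of library total, these are 105, 184 and 208 for lEVs and 159, 191 and 139.9 for sEVs, and the groups overlapped. On the TMM scale, small vesicles had 170 ± 28.9 CPM and large ones 155.2 ± 31.2 CPM (SD, n = 3 each). The fold change was 1.05, with an interval from 0.659 to 1.68 (log2 0.07, SE 0.29; edgeR adjusted p = 0.896). Its sign turned when libraries were scaled by their totals (log2 -0.09), without lEVs replicate 1 (-0.02) and without sEVs replicate 2 (-0.11). The interval, which is too narrow for the p that edgeR gave, already leaves room for a difference either way, so equal levels are not shown.

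**Figure D2:**
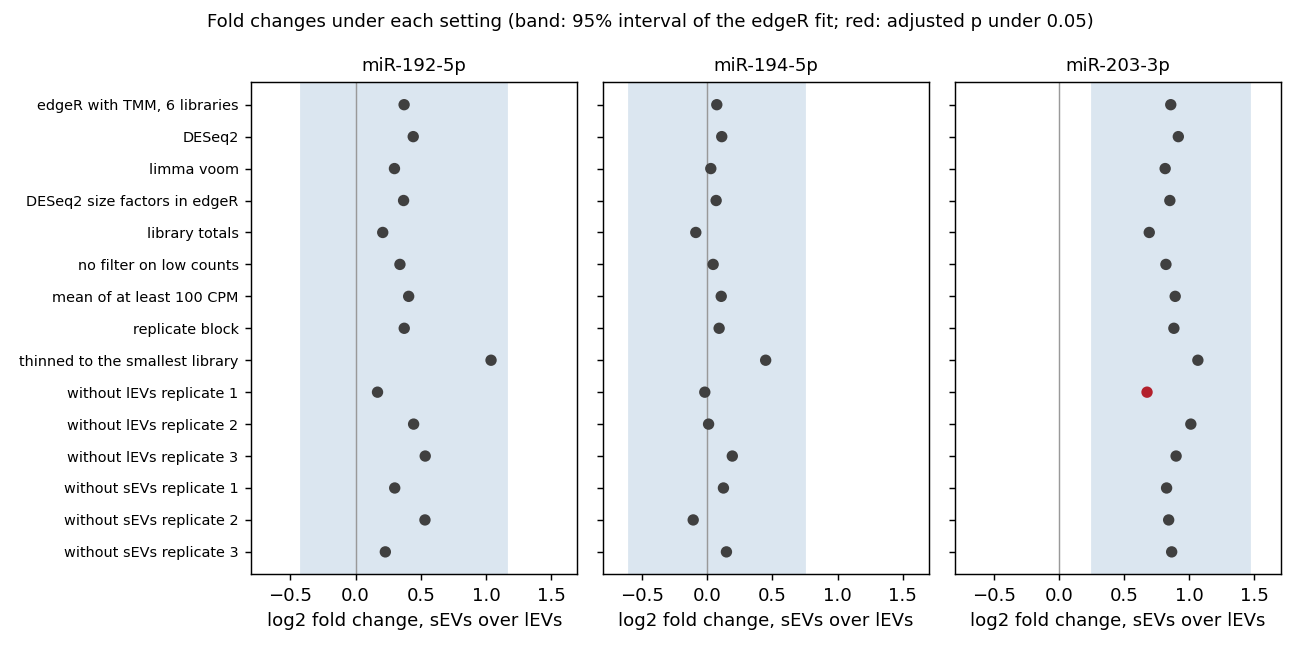
Log2 fold change of sEVs over lEVs (x axis) of the 3 counted miRNAs in the edgeR fit of all 6 libraries and under each alternative (y axis). The band is the 95% interval of the edgeR fit and a red point has an adjusted p under 0.05, which holds for miR-203-3p without lEVs replicate 1 alone, at 0.68.

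In all, 0 of the 3 miRNAs tested passed an adjusted p of 0.05 in edgeR, where 17.2% of the 145 tested did. At an unadjusted p under 0.05 there was 1, miR-203-3p, beside 37.9% of the 145. DESeq2 and limma voom also called 0 of them. limma voom called 20% of the same 145 miRNAs. DESeq2 called 28 of 238, or 11.8%, a larger set that holds miRNAs below the filter of edgeR. In edgeR the median log2 fold change of the 3 miRNAs was 0.37, which is the value of miR-192-5p, against -0.04 over the 145 tested. miR-122-5p could not be tested, as it was listed at 0 in all libraries.

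The ratio of the clustered pair needs no scaling between libraries. miR-192-5p had 0.8, 1.53 and 1.39 counts for each count of miR-194-5p in lEVs replicates 1, 2 and 3, and 2, 1 and 2.19 in those of sEVs. The log2 ratio averaged 0.71 (SD 0.62, n = 3) over sEVs and 0.26 (SD 0.50, n = 3) over lEVs. An exact permutation test, two-sided, gave p = 0.4, where 0.1 is the lowest that 3 against 3 libraries can reach. The groups overlapped, and the difference lay within the spread between libraries. miR-192-5p was above miR-194-5p in 4 of 6 libraries, equal in sEVs replicate 2 and below it in lEVs replicate 1. miR-203-3p was above miR-192-5p in 5 of 6 libraries.

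Only one arm of each hairpin was counted at a level that could be followed. miR-192-3p, miR-203-5p, miR-194-1-3p and both arms of miR-215 were listed at 0 in all 6 libraries. miR-194-2-3p, the arm that marks the chromosome 19 copy of miR-194, had 2 counts, in sEVs replicate 1. The seed UGACCUA was thus represented by miR-192-5p in these libraries, with miR-215-5p listed at 0. Both arms of miR-203b, from the strand opposite Mir203, were listed at 0.

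The 3 miRNAs stood in the lower part of the 145 miRNAs tested and in the upper part of the 327 above 0 in any library. Counts of mature miRNAs do not grow with the length of a gene, so their CPM can be set side by side. Capture can differ by sequence, and whether reads or unique molecules were counted is not known. By mean CPM with TMM factors over the 6 libraries, miR-203-3p was number 89 of 145 with 320.6, miR-192-5p number 105 with 240.3 and miR-194-5p number 124 with 162.6. The median over the 145 was 584.7. By mean share among the 327, they were numbers 89, 105 and 123. In the order by mean CPM among the 145, miR-203-3p had miR-19b-3p above it and miR-30a-3p below it. There miR-192-5p stood between miR-214-3p and miR-339-5p, and miR-194-5p between miR-361-3p and miR-708-5p. Each of these neighbours differed from its member by less than the SD over the libraries.

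**Figure D3:**
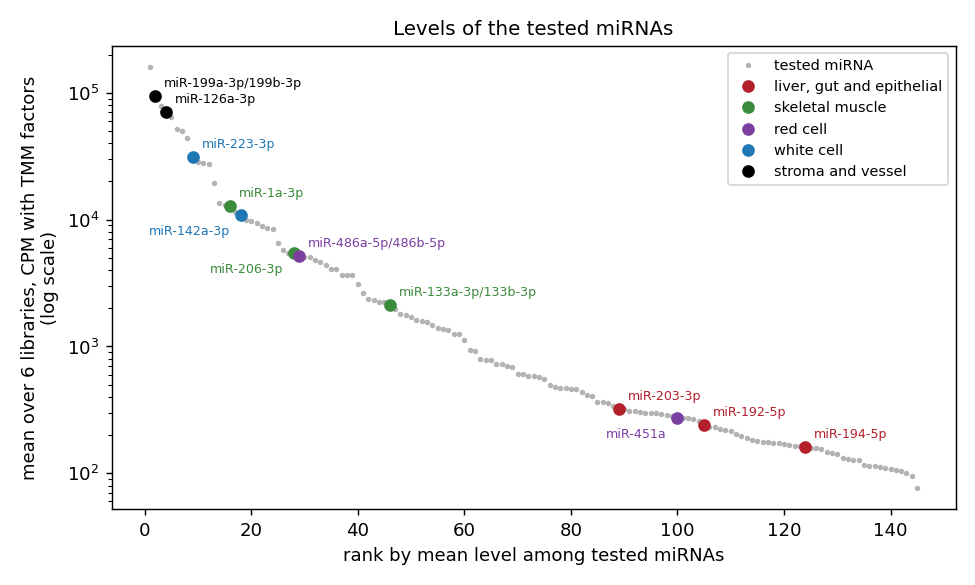
Mean level over 6 libraries in CPM with TMM factors (y axis, log scale) against rank (x axis) for the 145 miRNAs tested, with tissue-typical miRNAs in colour. miR-203-3p, miR-192-5p and miR-194-5p sit at ranks 89, 105 and 124, near the red cell miRNA miR-451a and far below the muscle miRNA miR-1a-3p. The other coloured red cell row, miR-486a-5p/486b-5p, is at rank 29. Only chosen rows of each list are coloured: the stromal miR-214-3p at rank 104 and the white cell miR-155-5p at rank 132 are not.

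Summed lists of miRNAs typical of muscle, stroma, vessels and white cells took far larger shares than the 4 miRNAs, through their leading rows. miR-1a-3p, a miRNA of skeletal and heart muscle, stood at 13661 ± 2145 CPM in small and 12044 ± 2747 CPM in large vesicles (SD, n = 3 each). The 3 counted muscle rows, with miR-206-3p and the joined row miR-133a-3p/133b-3p, made up 1.78% to 2.59% of lEVs counts and 1.67% to 2.00% of sEVs counts. A list of stromal, cartilage and vessel miRNAs, led by miR-199a-3p/199b-3p and miR-126a-3p, took 18.6% to 20.3% and 20.4% to 21.6%. A list of white cell miRNAs, led by the myeloid miR-223-3p, took 4.18% to 5.76% and 4.57% to 4.99%. Red cell miRNAs took 0.544% to 0.746% of lEVs counts and 0.438% to 0.568% of sEVs counts, most of it in miR-486a-5p/486b-5p. The erythroid miR-451a, abundant in blood, was counted 6, 37 and 19 times in lEVs and 20, 41 and 28 times in sEVs, 151 times in all. That is in the range of miR-192-5p and miR-203-3p. Other rows of these lists were as low: the stromal miR-214-3p had a mean of 258.7 CPM with TMM factors, the white cell miR-155-5p 129.2 CPM, below all 3 members, and the red cell miR-144-3p and miR-144-5p had 52 and 63 counts in all. What part of any of these counts came from blood or other tissues was not tested.

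In these lists, 0 of the 3 muscle and 0 of the 2 red cell rows tested passed in edgeR, where 17.2% of the 145 miRNAs did. The muscle row miR-133a-3p/133b-3p lay close to the threshold, at log2 -0.85 (edgeR adjusted p = 0.0555). miR-150-5p, a lymphocyte miRNA, rose in sEVs among 5 white cell rows (log2 0.91; edgeR adjusted p = 0.00268). miR-143-3p, of smooth muscle and fibroblasts, rose among 5 stromal and vessel rows (log2 0.65; edgeR adjusted p = 0.0231), a call lost in 4 of 14 alternatives, namely library totals and leaving out any of lEVs replicate 3 and sEVs replicates 2 and 3. The median log2 fold changes were -0.67 for muscle, 0.02 for red cell, -0.14 for white cell and 0.11 for stromal and vessel rows, beside -0.04 over all miRNAs tested. Without lEVs replicate 1 the muscle median was -0.25. In that fit 3 of the 5 stromal and vessel rows were called higher in sEVs, beside 19.2% of all 151 miRNAs tested. Muscle rows were called higher in lEVs under 5 alternatives: 2 of 3 with no filter on low counts, and 1 of 3 each with library totals, with the replicate number as a block, without lEVs replicate 1 and without lEVs replicate 2. Of all miRNAs tested, the calls higher in lEVs were, in the same order, 33 of 327, 24 of 145, 13 of 145, 23 of 151 and 13 of 148. With library totals the red cell median was -0.10 and 0 stromal and vessel rows were called.

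**Figure D4:**
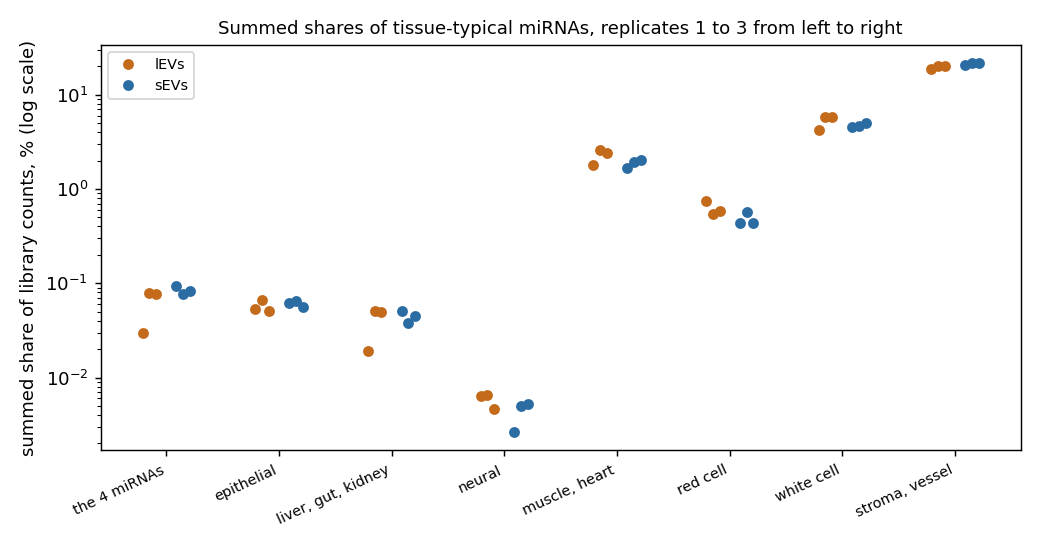
Summed share of library counts in percent (y axis, log scale) for lists of tissue-typical miRNAs (x axis), 1 point for each library of lEVs and sEVs. The 4 miRNAs together stay under 0.1% in every library, and in lEVs replicate 1 they stand at 0.0295%; the pancreas list, at 0 in 5 libraries, cannot be drawn on a log axis.

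The other names on a chosen list of liver, gut and kidney miRNAs were almost absent. Of 11 names in that list, 7 were listed at 0 throughout, among them both arms of miR-122 and miR-215. Most of the names at 0 were 3p arms. The 3p arms of miR-192 and miR-194 were at or near 0 although their 5p arms were counted, so a 0 of a 3p arm says little. Beside miR-192-5p, miR-194-5p and the 2 counts of miR-194-2-3p, the hepatic and pancreatic miR-802-5p had 4 counts, in lEVs replicate 2. Of 4 pancreas miRNAs, 3 were listed at 0, including the islet miRNA miR-375-3p, and miR-217-5p, of the exocrine pancreas, had 4 counts in sEVs replicate 3. Of 7 neural miRNAs, 4 were listed at 0, including the neuronal miR-124-3p, and the list took 0.00265% to 0.00649% of a library. Its counted rows were miR-9-5p with 18 counts over 5 libraries, miR-219a-5p with 5 over 2, and miR-138-5p with 3 in sEVs replicate 3.

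Other epithelial miRNAs were counted at low levels. Of 12 names in the list, 8 were above 0 in some library, and only miR-203-3p passed the filter on low counts. miR-182-5p, of sensory and other epithelia, was above 0 in every library, at 5, 8 and 4 counts for lEVs and 10, 9 and 5 for sEVs. Its groups overlapped. Of the miR-200 family, which holds the epithelial state by silencing Zeb1 and Zeb2, miR-141-3p had 18 counts over 5 libraries, miR-200c-3p 8 and miR-200a-3p 3. miR-200b-3p and miR-429-3p were listed at 0. miR-205-5p, which marks stratified epithelium as miR-203-3p does, had 10 counts over 3 libraries. These miRNAs without miR-203-3p summed to 20, 31 and 20 counts for lEVs and 13, 25 and 20 for sEVs.

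As shares, the epithelial miRNAs other than miR-203-3p did not share its low value in lEVs replicate 1. They stood at 422 CPM of library total there (interval 258 to 651), at 335 in lEVs replicate 2 (228 to 476) and at 231 in lEVs replicate 3 (141 to 357), so the intervals overlapped. In sEVs they stood at 172, 252 and 175. lEVs replicate 1 was thus their highest library, while it was the lowest for miR-192-5p, miR-194-5p and miR-203-3p. These sums include miR-31-5p, which held most of the excess of lEVs over sEVs. Without it they were 295, 195 and 150.1 CPM in lEVs and 172, 252 and 131 in sEVs. No test was made of these sums.

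miR-31-5p, an epithelial and stromal miRNA, was counted 6, 13 and 7 times in lEVs and listed at 0, 0 and 5 in sEVs. It did not pass the filter. With no filter edgeR placed it higher in lEVs (log2 -2.64, SE 0.99; adjusted p = 0.0480), while DESeq2 gave an adjusted p of 0.220. It passed the filter when some libraries were left out, and edgeR called it without sEVs replicate 3 (log2 -6.19; adjusted p = 0.0427), where both remaining sEVs libraries are listed at 0. It did not call it without lEVs replicate 3 (log2 -2.80; adjusted p = 0.155), sEVs replicate 1 (-2.06; 0.199) or sEVs replicate 2 (-1.98; 0.156). The fitted folds rest on few counts and on sEVs libraries listed at 0, and are no measure of its size.

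lEVs replicate 1 shaped how the 3 miRNAs varied together. In log2 CPM with TMM factors its differences from the average of lEVs replicates 2 and 3 were -1.32 for miR-192-5p, -1.07 for miR-203-3p and -0.46 for miR-194-5p. Of the 145 miRNAs tested, 9, 13 and 27 had a difference as low or lower, the miRNA itself included. Across the 6 libraries, which share their depth and scaling between miRNAs, Pearson's r was 0.86 for miR-192-5p with miR-203-3p and 0.33 without lEVs replicate 1. For the clustered pair miR-192-5p and miR-194-5p it was 0.47, and -0.68 without that library. Counts this low carry wide counting error, and these coefficients are given as a description of 6 libraries.

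By the same measure, Pearson's r of log2 (CPM + 1) over 6 libraries, the miRNAs of at least 100 CPM most like miR-203-3p were miR-152-3p (0.97), miR-22-3p (0.95) and miR-190a-5p (0.95). Of these, miR-22-3p rose in sEVs (log2 1.32; edgeR adjusted p = 0.00268). Those most like miR-192-5p were miR-361-5p (0.97), miR-338-3p (0.96) and let-7d-5p (0.93). The likeness was looser for miR-194-5p, with miR-214-3p at 0.80, miR-190a-5p at 0.71 and miR-103-3p/107-3p at 0.70. Without lEVs replicate 1 these last 3 coefficients were 0.51, 0.01 and 0.38. Those of miR-192-5p were then 0.818, 0.815 and 0.983, and those of miR-203-3p lay between 0.89 and 0.98. All these miRNAs were picked for the highest r in the same libraries, so high values follow from the choice.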

How the data were processed

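Per the labels' protocols, RNA came from a miRNeasy kit, libraries from the QIAseq miRNA kit, and sequencing from a MiSeq run with single reads of 75 bases. The deposited values are raw counts for each mature miRNA in each library. The submitters' processing notes name GRCm38, R 4.2.2 and DESeq2 1.38.2. No source used here gives the aligner or says whether strand was used, or whether reads or unique molecules were counted.

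Columns were matched to libraries by their labels. The main test was the quasi-likelihood test of edgeR 4.0.16 (R 4.3.3) with TMM scaling. The default filterByExpr settings (10 counts, total 15) kept 145 of 327 miRNAs above 0 in any library, with 99.4% to 99.6% of a library's counts. Adjusted p-values are Benjamini-Hochberg values over all miRNAs tested, called at 0.05. The SE is the absolute log2 fold change over the square root of F. For miR-194-5p the unadjusted p of edgeR, 0.859, is larger than this SE gives, so its SE and interval are too narrow. The script was tested on simulated data. Alternatives used DESeq2 1.42.0, limma 3.58.1 (voom), other scalings and filters, a replicate block, thinning, and leaving out each library. Members, lists and tests were chosen with earlier results of these data known. Text names the 4 members, most counted list members, the next miRNA above and below each member in level, and the 3 most alike in pattern. Listed miRNAs below the filter are given by counts, and miR-31-5p also by the alternatives in which it was fitted, chosen after its values were seen. Libraries within a fraction differed by more than counting noise (chi-square over degrees of freedom from 2.06 to 20.2), so each was counted as its own library; whether they are repeat preparations of one sample was not tested.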

Additional observations from a re-analysis of the deposited data

How the results depend on the processing

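The number of miRNAs called was 25 in edgeR with all libraries. It was 53 without the filter on low counts, and ranged from 16 (without lEVs replicate 3) to 52 (without lEVs replicate 1) when 1 library was left out. Scaling by library totals gave 35 calls, 11 higher in sEVs and 24 in lEVs, against 12 and 13 with TMM, and moved the median log2 fold change from -0.04 to -0.19. Of the members, 0 were called in 13 of 14 alternatives. Leaving out 1 library gave between 0 and 1, the 1 being miR-203-3p without lEVs replicate 1, where its log2 fold change was 0.68. It ranged from 0.68 to 1.01 over the libraries left out, with adjusted p from 0.0402 to 0.252 over all alternatives. miR-192-5p stayed above 0, from 0.17 to 1.04. The highest value came from 1 draw thinned to 47441 counts, which left 4, 7 and 13 counts for lEVs and 18, 9 and 18 for sEVs. miR-194-5p turned to -0.088 with library totals, -0.019 without lEVs replicate 1 and -0.108 without sEVs replicate 2, and ranged from -0.11 to 0.19 when 1 library was left out. The difference in the log2 ratio of miR-192-5p to miR-194-5p ran from 0.17 to 0.81 (0.46 with all libraries). The summed share was 0.113% in lEVs and 0.157% in sEVs when the 5 most abundant miRNAs were taken out of the total, by construction higher. With the replicate number as a block, 26 miRNAs were called, miR-203-3p had a log2 fold change of 0.88 and the ratio differed by 0.46. Same-numbered libraries correlated in their deviations at -0.07, 0.06 and 0.37. The 0.37 of replicate 3 was the highest of any pairing, the next being 0.13 for lEVs replicate 2 with sEVs replicate 1. lEVs replicate 1 correlated best with sEVs replicate 2. Deviations within 3 libraries of a fraction cannot settle whether the numbers mark pairs, and the main fit did not take them as pairs.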
